A study of Mus musculus with 6 samples.

Results

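The genes described here encode the machinery of oxidative phosphorylation: the subunits of respiratory complexes I to V, the 2 cytochrome c genes, and the assembly factors whose symbols share the same stems. They were chosen by symbol, with earlier results of these data known. The rule took genes named Nduf, Sdha to Sdhd, Uqcr, Cox4 to Cox8 or Atp5 at the start, together with Cycs and Cyct. It was applied among probe sets annotated with a single gene. This gave 96 genes read by 190 probe sets, of 18193 genes on the array, and 94 of the 96 were bright enough to be tested among 13447 genes. Whole testes of wild-type mice (Wt) and of mice homozygous for the Dazap1 Fn allele (Fn), of mixed C57BL/6 and 129 background, were taken at postnatal day 21, and total RNA of 3 samples of each genotype was hybridised to one-colour Affymetrix arrays. In the Fn allele a neomycin cassette remains in a floxed Dazap1 gene, whose product is an RNA-binding protein abundant in testis, and per the study the allele leaves an altered protein rather than none, while the homozygotes that reach this age are few and growth-retarded. The sample titles call the 3 samples of each genotype biological replicates, and the study states that different RNA preparations were used. The animals behind each preparation are not named, so the p-values below reflect only how far these preparations spread.

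Complexes I to IV pass electrons from NADH and succinate to oxygen and pump protons across the inner mitochondrial membrane, and complex V, the ATP synthase, uses that gradient to make ATP. Cytochrome c is the small haem protein that carries electrons from complex III to complex IV. Most subunits are made in every cell, but a few have isoforms restricted to certain tissues, and the testis is known for its own cytochrome c (Cyct) and its own complex IV subunits (Cox6b2, Cox7b2 and Cox8c), which appear in germ cells from meiotic prophase onward while somatic cells and earlier germ cells use the ubiquitous forms.

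The promoters of 3 testis isoforms, which fell in Fn testes, and of 3 ubiquitous isoforms, which rose, are shown. Cyct with Cycs and Cox6b2 with Cox6b1 are pairs of counterparts, whereas Cox7b2 and Cox8a are shown without theirs: Cox7b was not analysed here, and the window of Cox8c is not shown. Each window runs from 250 bases before to 50 bases after the transcription start in RefSeq (mouse build GRCm38.p6), 5′ to 3′ on the strand of the gene, which is the minus strand for all 6. Capitals mark matches on either strand to 3 words chosen after the values were seen: the cAMP response element TGACGTCA, the NRF1 word GCGCATGC and the ETS word CCGGAAG. The windows lie at chr2:76360404-76360703 (Cyct), chr6:50566520-50566819 (Cycs), chr7:4753045-4753344 (Cox6b2), chr7:30626065-30626364 (Cox6b1), chr5:71548156-71548455 (Cox7b2) and chr19:7217567-7217866 (Cox8a).
Cyct: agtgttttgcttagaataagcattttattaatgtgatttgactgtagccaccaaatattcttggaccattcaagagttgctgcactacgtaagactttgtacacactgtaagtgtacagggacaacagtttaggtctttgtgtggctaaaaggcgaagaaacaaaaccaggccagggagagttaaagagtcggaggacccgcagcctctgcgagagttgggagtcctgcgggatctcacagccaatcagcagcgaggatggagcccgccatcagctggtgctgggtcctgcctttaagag
Cycs: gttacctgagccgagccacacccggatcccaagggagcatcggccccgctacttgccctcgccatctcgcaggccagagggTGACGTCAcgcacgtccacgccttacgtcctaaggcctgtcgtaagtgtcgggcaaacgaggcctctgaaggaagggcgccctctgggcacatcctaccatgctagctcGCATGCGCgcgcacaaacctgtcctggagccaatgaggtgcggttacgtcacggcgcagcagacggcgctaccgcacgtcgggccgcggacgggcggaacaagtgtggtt
Cox6b2: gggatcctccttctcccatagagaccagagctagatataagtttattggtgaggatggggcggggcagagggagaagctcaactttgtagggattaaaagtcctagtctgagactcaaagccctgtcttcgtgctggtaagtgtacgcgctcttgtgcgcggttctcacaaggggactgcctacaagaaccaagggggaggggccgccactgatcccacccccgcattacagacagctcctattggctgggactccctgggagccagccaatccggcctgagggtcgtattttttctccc
Cox6b1: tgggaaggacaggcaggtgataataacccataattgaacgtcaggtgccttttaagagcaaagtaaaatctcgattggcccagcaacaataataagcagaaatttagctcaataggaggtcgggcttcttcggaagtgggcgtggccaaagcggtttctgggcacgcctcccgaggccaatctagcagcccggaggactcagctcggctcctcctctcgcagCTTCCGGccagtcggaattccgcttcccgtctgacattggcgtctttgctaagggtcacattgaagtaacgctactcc
Cox7b2: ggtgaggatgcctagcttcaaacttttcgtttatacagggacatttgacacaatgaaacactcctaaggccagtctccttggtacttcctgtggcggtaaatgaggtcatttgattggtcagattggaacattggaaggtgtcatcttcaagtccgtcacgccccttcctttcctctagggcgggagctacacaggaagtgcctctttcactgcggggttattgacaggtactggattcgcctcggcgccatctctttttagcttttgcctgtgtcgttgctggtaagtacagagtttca
Cox8a: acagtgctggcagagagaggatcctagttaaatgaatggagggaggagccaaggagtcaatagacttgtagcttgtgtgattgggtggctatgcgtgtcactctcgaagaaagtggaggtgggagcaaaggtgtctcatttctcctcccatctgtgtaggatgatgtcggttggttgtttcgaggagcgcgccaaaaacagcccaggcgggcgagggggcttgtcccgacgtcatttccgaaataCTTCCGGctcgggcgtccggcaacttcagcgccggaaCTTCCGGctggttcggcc

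None of the 3 words was found in the windows of Cyct, Cox6b2 and Cox7b2. The window of Cycs held 1 cAMP response element and 1 NRF1 word, that of Cox6b1 held 1 ETS word and that of Cox8a held 2 ETS words, with no overlap between matches. CG dinucleotides numbered 8 in Cyct, 10 in Cox6b2 and 10 in Cox7b2, against 32 in Cycs, 17 in Cox6b1 and 19 in Cox8a. Among all 32851 RefSeq windows the median was 7 CG dinucleotides (quartiles 3 and 20), and among the 85 windows of the oxidative phosphorylation genes it was 20 (quartiles 15 and 27). TGACGTCA lay in 1.79% of all windows and in 4 of the 80 genes with a window (5.0%). GCGCATGC lay in 2.71% of all windows and in 12 of 80 genes (15.0%), and CCGGAAG in 8.86% of all windows and in 22 of 80 genes (27.5%). Of the 4 genes holding TGACGTCA, 2 fell and 2 rose. Among the 12 with GCGCATGC, 1 fell and 5 rose, and among the 22 with CCGGAAG, 3 fell and 10 rose. Of all genes tested 24.7% fell and 44.9% rose. The 6 windows shown were picked by direction of change, so they do not show whether the words go with it. A match is a description of the letters and not of a bound site.

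Dazap1 itself was read at signals of 4323, 4462 and 5046 in Wt and 2538, 2735 and 2820 in Fn testes, and fell by 0.77 on the log2 scale (standard error, SE, 0.088; limma adjusted p = 6.7e-05). The deposited signals had been scaled to one level by the authors (the mean without the highest and lowest 2% was 498.4 to 498.6 in every array), and the median log2 change of all 13447 genes tested, Fn minus Wt, was 0.32. In the same arrays 8 of 9 pachytene spermatocyte markers tested fell, with summed signals of 66024 to 70916 in Wt and 14945 to 21748 in Fn testes. Likewise 6 of 7 spermatid markers tested fell (summed signals 16589 to 19508 in Wt and 1986 to 2308 in Fn), whereas 9 of 10 Sertoli cell markers rose (35680 to 41292 in Wt and 56822 to 58320 in Fn) and 7 of 9 early germ cell markers rose, with 1 that fell. Among all genes tested 24.7% fell and 44.9% rose. The marker lists were chosen with earlier results of these data known, so their counts are not independent of the data. These lists moved together with the isoform changes below, and their part in them was not tested. In whole testis RNA, fewer cells of a type, cells at an earlier stage and less RNA per cell cannot be told apart. The study itself was concerned that, with growth retarded, pachytene spermatocytes of Fn testes at this age might lag behind those of Wt. For its exon arrays it therefore turned to adult Fn testes.

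Over the whole group the changes were small and went both ways. Of the 94 genes tested, 30 fell (31.9%) and 26 rose (27.7%) at an adjusted p under 0.05 (limma, Benjamini-Hochberg over all probe sets tested), while 38 did not pass. Among all genes tested 24.7% fell and 44.9% rose by the same test. The median log2 change of the 94 was -0.01, against 0.32 for all genes. The split of falls against rises depends on the scaling: it was 23 against 30 after quantile normalization, 39 against 15 with the arrays centred on their medians and 40 against 22 with the arrays centred on their 75th percentiles. Scaling shifts all genes as well, and the shares of all genes called under these scalings are not given here. Changes of more than 2-fold were found in 5 genes that fell (Ndufaf3, Ndufa4l2, Cox8c, Cyct and Cox6b2) and in 2 that rose (Ndufaf4 and Sdhaf3), where 13.8% of all genes fell and 11.6% rose by that much. Thus 3 of the 5 falls of more than 2-fold were testis isoforms and 1 was another restricted isoform.

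**Figure D1:**
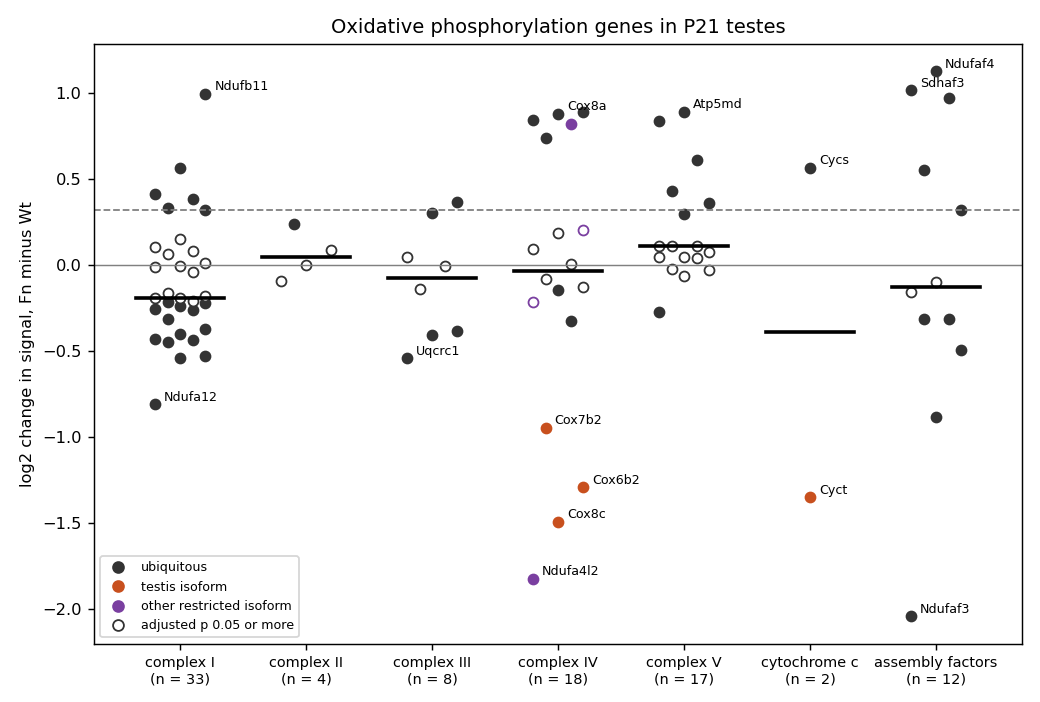
Change from Wt to Fn on the log2 scale for the 94 genes tested, by complex; filled points passed the test, open points did not, bars are medians of each complex, with the median of all tested genes (0.32) dashed. The 4 testis isoforms (orange) lie between -0.95 and -1.49, and the largest fall is that of Ndufaf3 at -2.04.

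The testis isoforms fell without exception. Cyct, the germ cell cytochrome c, had signals of 6936, 8195 and 8434 in Wt and 3217, 3352 and 2681 in Fn testes. Every Fn value was less than the lowest Wt value by a wide margin, and the log2 change was -1.35 (SE 0.107, limma adjusted p = 7.0e-06), or 2.55-fold lower. Cycs, the ubiquitous cytochrome c, went the other way, with signals of 13976, 13114 and 10950 in Wt and 19199, 18698 and 18226 in Fn testes. The groups did not overlap, and the log2 change was 0.57 (SE 0.086, limma adjusted p = 3.5e-04). All 3 probe sets of Cycs that were tested rose.

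Cox6b2 and Cox6b1 encode the testis and the ubiquitous form of a complex IV subunit on the side of the enzyme where cytochrome c docks. Cox6b2 had signals of 14131, 15873 and 16072 in Wt and 6081, 7361 and 5474 in Fn testes. The groups stood far apart, with a log2 change of -1.29 (SE 0.105, limma adjusted p = 8.2e-06), or 2.45-fold lower. Cox6b1 rose from 5502, 5751 and 4552 in Wt to 8979, 8440 and 8825 in Fn testes. No Fn array came near the Wt arrays, and the log2 change was 0.74 (SE 0.092, limma adjusted p = 1.1e-04).

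Cox8c, the testis form of complex IV subunit VIII, had signals of 11281, 11516 and 11910 in Wt and 3818, 5064 and 3577 in Fn testes. The groups stood far apart, with a log2 change of -1.49 (SE 0.117, limma adjusted p = 6.3e-06), or 2.82-fold lower. A second probe set of Cox8c was dim, at signals of 60.6 to 131, and did not pass the test (0.37, adjusted p = 0.28 from limma), so the mean of both probe sets gave -0.56, the smallest fall of the testis isoforms in place of the largest. Cox8a, the ubiquitous form, had signals of 1777, 1779 and 1433 in Wt and 3036, 2959 and 3146 in Fn testes. All Fn values lay above all Wt values (log2 change 0.88, SE 0.104, limma adjusted p = 8.4e-05), and both of its probe sets tested rose.

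Cox7b2, the testis form of subunit VIIb, was read by 1 probe set. Its signals were 9959, 10202 and 10414 in Wt and 5388, 5472 and 5026 in Fn testes. Its replicates were the tightest of the testis isoforms, and its log2 change was -0.95 (SE 0.065, limma adjusted p = 2.7e-06), or 1.93-fold lower. Its ubiquitous counterpart Cox7b was not analysed here. The median log2 change of the 4 testis isoforms was -1.32. Each of the 4 was called lower under all 18 alternatives run. In the main fit 24.7% of all genes tested fell, and the 4 were chosen with earlier results of these data known.

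**Figure D2:**
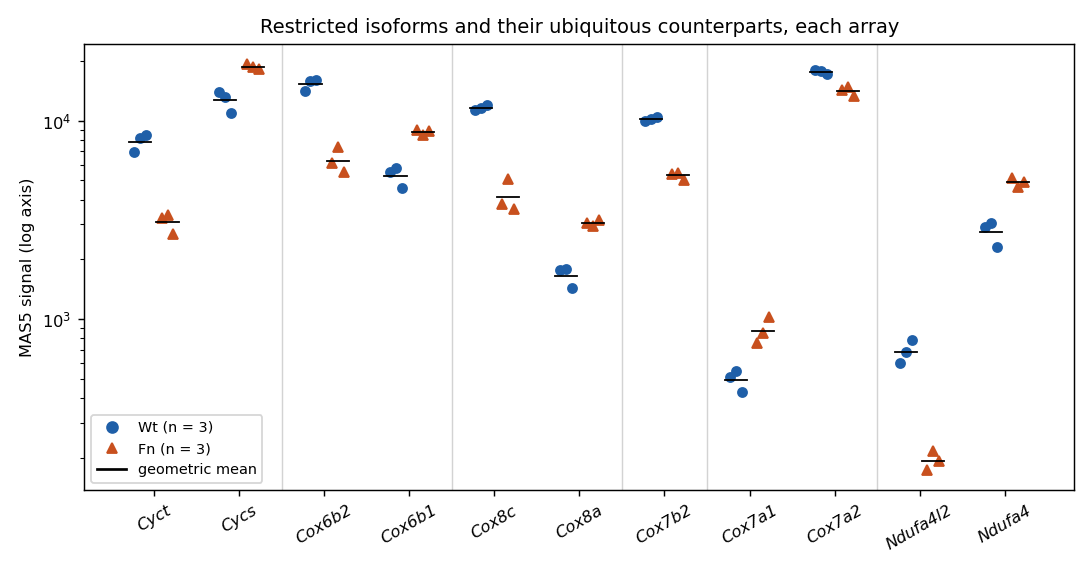
MAS5 signals on a log axis of restricted isoforms and their ubiquitous counterparts in each of the 3 Wt arrays (circles) and 3 Fn arrays (triangles); bars are geometric means, and Cox6a1 and Cox4i1 are not drawn. The Fn arrays lie below the Wt arrays for Cyct, Cox6b2, Cox8c, Cox7b2, Cox7a2 and Ndufa4l2 and above them for Cycs, Cox6b1, Cox8a, Cox7a1 and Ndufa4; levels of different probe sets are not comparable.

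The ubiquitous counterparts did not all rise. Of the 7 measured, 4 rose (Cycs, Cox6b1, Cox8a and Ndufa4), 1 fell (Cox7a2) and 2 did not pass (Cox6a1 and Cox4i1). The share that rose was 57.1%, against 44.9% of all genes tested. Cox7a2, the broadly expressed form of subunit VIIa, had signals of 17869, 17800 and 17244 in Wt and 14186, 14755 and 13359 in Fn testes. The fall was small but clear of the spread (-0.32, SE 0.058, limma adjusted p = 9.3e-04), and the other probe set fell as well. Cox6a1 changed by 0.09 (adjusted p = 0.16 from limma) and Cox4i1 by -0.13 (adjusted p = 0.089 from limma), and Cox4i1 passed under 4 alternatives as a fall. The arrays of the genotypes did not overlap for either gene. These are the broadly expressed forms of subunits whose restricted forms, Cox6a2 and Cox4i2, were at signals of 31.2 to 70.8 in these testes, near the filter level of 48.0.

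Restricted isoforms of other tissues moved in different directions. Cox7a1, the form of subunit VIIa in heart, skeletal muscle and brown fat, had signals of 510, 546 and 428 in Wt and 754, 852 and 1024 in Fn testes. The groups did not overlap, and the log2 change was 0.82 (SE 0.150, limma adjusted p = 1.1e-03). Among 8 skeletal muscle markers 1 was bright enough to be tested and did not pass (log2 change 0.60), with summed signals of 238 to 274 in Wt and 318 to 446 in Fn testes. Both brown fat markers tested, Cidea and Elovl3, rose, with summed signals of the list of 868 to 1065 in Wt and 2000 to 2368 in Fn testes, while Ucp1, which defines brown fat, stayed under the filter at 2.4 to 12.5. White fat markers rose in 4 of 5 tested, with summed signals of 1388 to 5322 in Wt and 5924 to 11847 in Fn testes. These marker lists too were chosen with earlier results known, and 44.9% of all genes tested rose. The part of fat or muscle RNA in the rise of Cox7a1 was not tested. Cox6a2, the muscle and heart form of subunit VIa, changed by -0.22 (adjusted p = 0.57 from limma), and Cox8b, the muscle and heart form of subunit VIII, was under the filter.

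Ndufa4l2, a paralogue of Ndufa4 known to be induced in low oxygen, showed the second largest fall among the oxidative phosphorylation genes. Its signals were 601, 680 and 786 in Wt and 174, 217 and 192 in Fn testes. The Wt arrays were all far above the Fn arrays, and the log2 change was -1.82 (SE 0.154, limma adjusted p = 1.0e-05), or 3.54-fold lower. It overlaps Shmt2 in the RefSeq annotation, and whether its probes also meet Shmt2 transcripts was not tested. Ndufa4, named for complex I but now placed with complex IV, rose from 2910, 3041 and 2301 in Wt to 5145, 4646 and 4922 in Fn testes (log2 change 0.84, SE 0.11, limma adjusted p = 1.5e-04). Cox4i2, the restricted form of subunit IV, changed by 0.20 (adjusted p = 0.68 from limma), and its 2 genotypes overlapped.

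The balance between a restricted isoform and its counterpart was taken within each array, as the log2 difference of their signals, so that scaling by a constant between arrays drops out. Of 9 pairs listed, 7 were measured, and 3 of these were testis pairs. For Cyct against Cycs the difference was -1.01, -0.68 and -0.38 in Wt and -2.58, -2.48 and -2.77 in Fn testes. The balance moved by -1.92, a 3.78-fold shift toward Cycs in Fn testes. For Cox6b2 against Cox6b1 the difference was 1.36, 1.46 and 1.82 in Wt and -0.56, -0.20 and -0.69 in Fn testes. It moved by -2.03, or 4.09-fold toward Cox6b1. For Cox8c against Cox8a the difference was 2.67, 2.69 and 3.06 in Wt and 0.33, 0.78 and 0.19 in Fn testes. It moved by -2.38, or 5.19-fold toward Cox8a. With the mean of the probe sets the shift was -1.40 for this pair, -2.10 for Cyct and -1.99 for Cox6b2, so the order of the testis pairs depends on the probe sets. The absolute differences depend on the probes and only their shift between genotypes is comparable.

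Outside the testis pairs, Ndufa4l2 against Ndufa4 moved by -2.67 (6.35-fold), and Cox7a1 against Cox7a2 moved the other way, by 1.15 (2.21-fold toward Cox7a1). These pairs and the 3 testis pairs had groups that did not overlap, and each gave an exact two-sided permutation p of 0.1, the smallest that 3 against 3 arrays allow, or 0.14 after Benjamini-Hochberg over the 7 pairs. The design could therefore not reach 0.05 for any pair. Cox6a2 against Cox6a1 moved by -0.31 (exact permutation p = 0.2, adjusted 0.233) and Cox4i2 against Cox4i1 by 0.33 (exact permutation p = 0.6, adjusted 0.6). In both of these pairs the arrays of the genotypes overlapped.

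**Figure D3:**
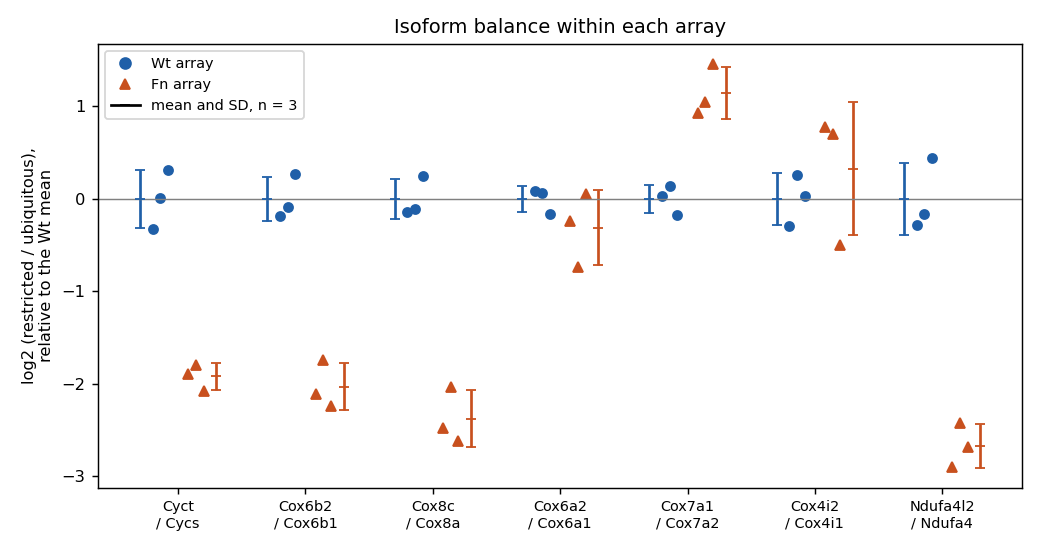
Log2 ratio of a restricted isoform to its ubiquitous counterpart in each array, relative to the Wt mean of the pair, for 3 Wt arrays (circles) and 3 Fn arrays (triangles), with mean and SD. The 3 testis pairs shift by -1.92 to -2.38 and Ndufa4l2 / Ndufa4 by -2.67, while Cox7a1 / Cox7a2 shifts by 1.15.

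Complex I, the NADH dehydrogenase, was tested in 33 of 34 genes. In it 14 genes fell (42.4%, against 24.7% of all genes tested), 6 rose (18.2%, against 44.9%) and 13 did not pass. The median was -0.19 with a range from -0.81 to 0.996, and none changed by more than 2-fold. The largest fall was that of Ndufa12, an accessory subunit, with signals of 11033, 7350 and 10962 in Wt and 4650, 6608 and 5368 in Fn testes. Wt replicate 2 stood close to the Fn arrays, and the log2 change was -0.81 (SE 0.168, limma adjusted p = 2.3e-03). The brightest probe set of this gene is of a kind that can bind transcripts of related sequence, but the other 2 probe sets tested gave -0.72 and -0.69. Ndufc1 (-0.54), Ndufb1 (-0.53), Ndufb10 (-0.45), Ndufb5 (-0.43), Ndufa2 (-0.43), Ndufs4 (-0.40) and Ndufv2 (-0.37) followed, and Ndufa5 (-0.31), Ndufa7 (-0.26), Ndufa9 (-0.26), Ndufb2 (-0.24), Ndufb8 (-0.22) and Ndufb7 (-0.21) fell by less. Of these, Ndufb7 and Ndufb8 each lost the call under 8 of 18 alternatives and Ndufb2 under 6, and Ndufb8 turned to 0.22 with the mean of its probe sets.

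The module of complex I that takes electrons from NADH was represented by Ndufv1, Ndufv2, Ndufv3, Ndufs1, Ndufs4, Ndufa2 and Ndufa12, a grouping made after the values were seen. All 7 had a log2 change below 0, from -0.81 to -0.04 with a median of -0.37. Of the 7, 4 were called lower (Ndufa12, Ndufa2, Ndufs4 and Ndufv2), or 57.1% against 24.7% of all genes tested. Of all genes tested 35.8% lay below 0, and of the complex I genes 22 of 33. The sign of Ndufs4 rests on its brightest probe set: 1 of its 3 probe sets tested fell. The mean of all 4 of its probe sets, including one under the filter, gave 0.34. Ndufs1 (-0.19), Ndufv1 (-0.18) and Ndufv3 (-0.04) did not pass, and Ndufv3 turned to 0.057 after quantile normalization. Of the core subunits outside this module, Ndufs7, which carries an iron-sulphur cluster, rose (0.32, adjusted p = 0.026 from limma), a call lost under 7 of 18 alternatives. For Ndufs8 the brightest probe set did not pass (0.15, adjusted p = 0.35 from limma), although 4 of its 6 probe sets were called higher.

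The largest rise in complex I was that of Ndufb11, a small membrane subunit encoded on the X chromosome. Its signals were 2979, 3011 and 2321 in Wt and 5498, 5361 and 5604 in Fn testes. The Fn arrays lay close together and well above all Wt arrays, with a log2 change of 0.996 (SE 0.106, limma adjusted p = 4.4e-05), and the other 2 probe sets gave 1.06 and 0.99. Ndufa1, the other X-linked member, rose from 8616, 9290 and 8408 in Wt to 12455, 13142 and 13387 in Fn testes (log2 change 0.57, SE 0.064, limma adjusted p = 6.7e-05). These are the X-linked members, and 44.9% of all genes tested rose. Ndufa10 (0.41), Ndufa13 (0.38), Ndufa3 (0.33) and Ndufs7 were the other rises of the complex, all of them autosomal. Genes that did not pass were Ndufa6, Ndufa8, Ndufab1, Ndufb3, Ndufb6, Ndufb9, Ndufc2, Ndufs3, Ndufs5 and Ndufs8 beside the 3 of the NADH module, with log2 changes from -0.21 (Ndufs5) to 0.15 (Ndufs8), and Ndufb4 was under the filter.

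Complex II, the succinate dehydrogenase that also belongs to the citric acid cycle, changed little by its brightest probe sets. Sdha, its flavoprotein, changed by -0.09, Sdhb, its iron-sulphur protein, by 0.00 and Sdhc, a membrane anchor, by 0.09, and none of the 3 passed the test in limma. With the mean of all 4 of its probe sets, of which only 2 passed the filter, Sdha turned to 0.41. Sdhd, the other anchor, had signals of 2902, 3061 and 2768 in Wt and 3434, 3624 and 3265 in Fn testes. The groups did not overlap, but the rise was small (0.24, SE 0.082, limma adjusted p = 0.027) and was lost under 8 alternatives.

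Complex III hands electrons to cytochrome c. Of its 8 genes, 3 fell (37.5%, against 24.7% of all genes tested), 2 rose (25%, against 44.9%) and 3 did not pass, with a median of -0.07. Uqcrc1, a core subunit, had signals of 7865, 7839 and 8434 in Wt and 5448, 5326 and 5811 in Fn testes. This was the largest fall of the complex, with every Fn array below every Wt array (-0.54, SE 0.069, limma adjusted p = 1.3e-04). Uqcrfs1, the Rieske iron-sulphur protein, fell by 0.38 on the log2 scale, and Uqcrq, a small subunit, fell by 0.40 on that scale. The small subunits Uqcr11 and Uqcrh rose by 0.37 and 0.31, and Uqcrb (-0.14) and Uqcrc2 (0.05) did not pass. Uqcrb passed as a fall under 7 of 18 alternatives, and 1 of its 2 probe sets was called lower.

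The probe sets of Uqcr10, a small subunit of complex III, did not move together. The brightest read 4075, 4353 and 4070 in Wt and 3905, 4096 and 4463 in Fn testes, with no difference beyond the spread (-0.01, adjusted p = 0.96 from limma). A second probe set read 1457, 1533 and 1561 in Wt and 516, 505 and 601 in Fn testes. The last read 929, 995 and 1025 in Wt and 236, 275 and 286 in Fn testes. Both fell far beyond the spread, by 1.49 and by 1.89 on the log2 scale (adjusted p = 4.4e-06 and 2.2e-06 from limma). No source used here says which transcripts each probe set reads, and Uqcr10 overlaps the predicted gene Gm51883 in the RefSeq annotation. Over all members, 52 had more than 1 probe set tested: in 27 of them every probe set had the same call, in 25 some passed and others did not, and in 0 were probe sets called in opposite directions by limma.

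**Figure D4:**
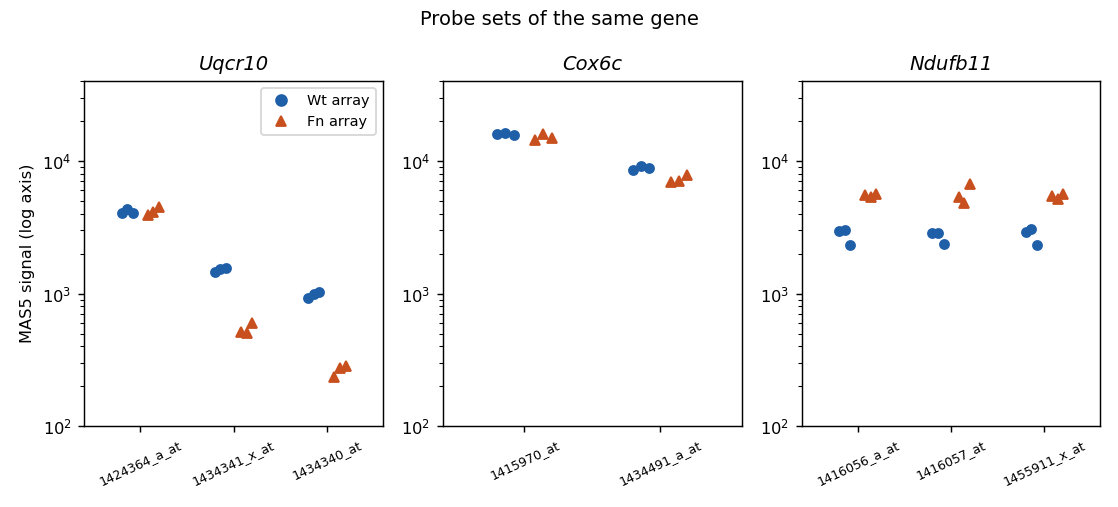
MAS5 signals on a log axis of each tested probe set of Uqcr10, Cox6c and Ndufb11 in 3 Wt arrays (circles) and 3 Fn arrays (triangles). The 3 probe sets of Ndufb11 rise alike (0.99 to 1.06), whereas 2 of the 3 probe sets of Uqcr10 fall (-1.49 and -1.89) and the brightest does not (-0.01).

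In complex IV, cytochrome c oxidase, 18 of 19 genes were tested. Of these 6 fell (33.3%, against 24.7% of all genes tested), 5 rose (27.8%, against 44.9%) and 7 did not pass, with a median of -0.04. Leaving out the restricted isoforms, 11 genes remained, of which 2 fell (18.2%), 4 rose (36.4%) and 5 did not pass, with a median of 0.09. Beyond the paired genes, Cox5a, a subunit on the matrix side, fell slightly (-0.14, adjusted p = 0.049 from limma), a call lost under 10 of 18 alternatives. Cox7c rose by 0.89 (SE 0.192, limma adjusted p = 2.8e-03), but at signals of only 134 to 331. Cox6c did not pass with its brightest probe set (-0.08, adjusted p = 0.27 from limma), while its second fell by 0.28 on the log2 scale. Cox5b (0.01) and Cox7a2l (0.19), the latter a factor that links complexes III and IV, did not pass.

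Complex V held 6 rises (35.3%, against 44.9% of all genes tested) and 1 fall (5.88%, against 24.7%) among 17 genes. The other 10 did not pass, and the median was 0.11, against 0.32 for all genes. Atp5md, a small subunit of the membrane part, had signals of 2739, 2188 and 2109 in Wt and 3903, 4095 and 5074 in Fn testes. The groups did not overlap, although Fn replicate 3 stood above the other two (0.89, SE 0.129, limma adjusted p = 2.7e-04). The proton-carrying ring of c subunits is encoded by 3 genes, of which 2 rose and 1 did not pass. Atp5g2 had signals of 3171, 3479 and 2806 in Wt and 5439, 5588 and 5823 in Fn testes (0.84, SE 0.091, limma adjusted p = 5.0e-05), Atp5g1 rose by 0.43, and Atp5g3 changed by 0.11 (adjusted p = 0.10 from limma). Atp5mpl (0.61) and Atp5l (0.30), further membrane subunits, also rose.

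The catalytic head of complex V changed little. Of its 5 genes, grouped after the values were seen, Atp5c1, the central shaft, rose (0.36, adjusted p = 3.1e-03 from limma), and Atp5a1 (0.11), Atp5b (-0.02), Atp5d (-0.03) and Atp5e (-0.06) did not pass. Atp5j, a stalk subunit, was the only fall of the complex, with signals of 8494, 9499 and 9037 in Wt and 7420, 7179 and 7774 in Fn testes (-0.27, SE 0.069, limma adjusted p = 6.6e-03). It overlaps Gabpa in the RefSeq annotation, and whether its probes also meet Gabpa transcripts was not tested. Atp5h, Atp5j2, Atp5k, Atp5o and Atp5pb did not pass, with log2 changes of 0.04 to 0.11.

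Assembly factors, which build the complexes and are not part of them, held the extremes in both directions. Of 12 tested, 5 fell (41.7%, against 24.7% of all genes tested), 5 rose (41.7%, against 44.9%) and 2 did not pass. Ndufaf3, an early factor of complex I, had signals of 10104, 10716 and 11873 in Wt and 2581, 2873 and 2470 in Fn testes. No member fell more: the log2 change was -2.04 (SE 0.088, limma adjusted p = 2.2e-07), or 4.13-fold lower, which is more than any testis isoform. Ndufaf4, which is known to act together with Ndufaf3, had signals of 584, 716 and 474 in Wt and 1511, 1054 and 1301 in Fn testes. It moved the opposite way, with the largest rise among the members (1.13, SE 0.177, limma adjusted p = 4.4e-04) and both of its probe sets higher.

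Among the other complex I factors, Ndufaf2 (-0.89), Ndufaf8 (-0.31) and Ndufaf7 (-0.31) fell, Ndufaf6 (0.98) and Ndufaf1 (0.55) rose, and Ndufaf5 (-0.10) did not pass. The calls of Ndufaf8 and Ndufaf7 were lost under 6 and 5 of 18 alternatives. The complex II factors split as well. Sdhaf3, which helps mature the iron-sulphur subunit, had signals of 754, 722 and 552 in Wt and 1374, 1265 and 1438 in Fn testes. All Fn arrays lay above all Wt arrays (1.02, SE 0.136, limma adjusted p = 1.7e-04), although with the mean of its probe sets, one of them very dim, the change was 0.14 and did not pass. Sdhaf2, which attaches the flavin to Sdha, rose by 0.32 but lost the call under 9 of 18 alternatives, Sdhaf4, a chaperone of flavin-bound Sdha, fell by 0.49 on the log2 scale, and Sdhaf1 (-0.16) did not pass.

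Other genes of mitochondrial respiration, from lists that the symbol rule does not reach, were read beside these. Of 77 listed, 71 were on the array and 69 were tested, and 20 fell (29%), 29 rose (42%) and 20 did not pass, with a median of 0.14. These shares lie near those of all genes tested (24.7% and 44.9%). Among complex I assembly factors with other names 5 of 8 rose and 1 fell, with Ecsit at 0.72, Tmem126b at 0.92 and Nubpl at 0.55. Of 6 further complex III genes 3 rose and 2 fell, with Cyc1, the cytochrome c1 of the complex, at 0.50, Bcs1l, which inserts the Rieske protein, at 0.93 and the assembly factor Uqcc2 at -0.72. Of 20 complex IV assembly genes 5 rose and 6 fell, and the largest change was that of Sco2, a copper chaperone, from 455, 534 and 544 in Wt to 144, 172 and 130 in Fn testes (-1.78, adjusted p = 1.7e-05 from limma). In the same list Pet100 changed by -0.50 and Cox18 by 0.52. Of 4 further complex V genes 1 rose (the assembly factor Atpaf1, 0.50) and 1 fell (Atpif1, the inhibitor of the enzyme, -0.25).

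Hccs, which attaches haem to both cytochromes c, rose from 921, 1186 and 708 in Wt to 2218, 1878 and 2099 in Fn testes (1.17, adjusted p = 2.9e-04 from limma), as Cycs did. Of 13 regulators of mitochondrial DNA and of the nuclear genes for mitochondria 7 rose (53.8%, against 44.9% of all genes) and 2 fell. Tfam, which packages mitochondrial DNA, changed by 1.01, Ssbp1, which binds it as a single strand, by 1.03, and Pprc1, a coactivator, by 1.01. In the 17 genes of pyruvate entry and the citric acid cycle 8 fell (47.1%, against 24.7% of all genes) and 7 rose (41.2%). Csl, a citrate synthase paralogue, had signals of 2117, 2192 and 2506 in Wt and 195, 286 and 180 in Fn testes, the largest change in these lists (-3.39, adjusted p = 4.8e-07 from limma). Sucla2, a succinyl-CoA ligase subunit, fell (-0.95), and Idh3g, a regulatory subunit of isocitrate dehydrogenase, rose (1.19).

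**Figure D5:**
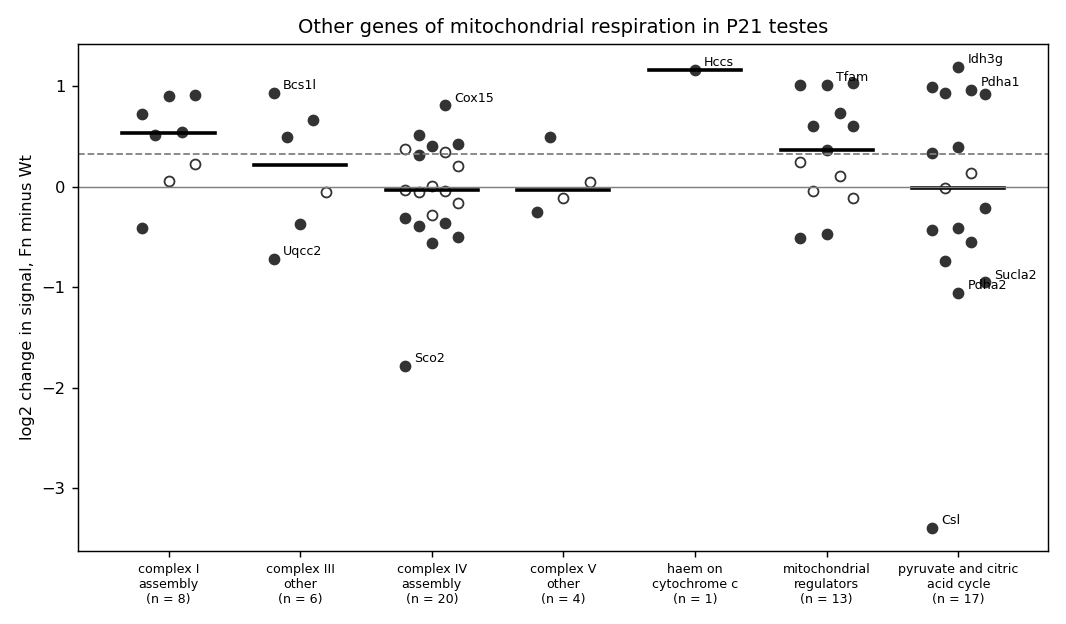
Change from Wt to Fn on the log2 scale for the 69 other genes of mitochondrial respiration tested, by list; filled points passed the test, open points did not, bars are medians of each list, with the median of all tested genes (0.32) dashed. Csl (-3.39) and Sco2 (-1.78) fall most, and Idh3g (1.19) and Hccs (1.17) rise most.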

How the data were processed

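For each probe set the authors deposited a MAS5 signal, an intensity on a linear scale, from 6 one-colour Affymetrix arrays (3 Wt, 3 Fn) at postnatal day 21. The submitters' notes name MAS5 and give no version. The study used GeneSpring with a fold threshold and names no test for this array. Signals were already scaled between arrays. Of 45037 probe sets, 34945 named 1 gene in the platform annotation, 932 several and 9160 none; those with 1 gene were used. The 1 value of 0 was set to 0.1. Log2 intensities were tested in R 4.3.3 with limma 3.58.1 (lmFit, eBayes with an intensity trend), over 27022 probe sets whose geometric mean reached the 40th percentile of all probe sets (48.0), with Benjamini-Hochberg adjustment. The brightest probe set stood for a gene. The number of arrays limits the precision. Steps were tested on simulated data, with 50 probe sets changed at each size. Log2 changes of -1 and 1 were recovered in 54% and 46%, and those of -2 and 2 in 76% and 82%, with 5.84% false calls. A gene that did not pass may therefore still have changed.

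The members and lists were chosen with earlier results of these data known. Genes named by rule were the isoform pairs, the largest fall and rise of each complex, the 6 largest falls and rises, X-linked members and up to 3 genes of each other list with the smallest p; the remaining members are given so that each is accounted for. The symbols of all 96 members had an identifier in the RefSeq table, in which 30 overlap another gene. Pairs were tested with an exact two-sided permutation test. Deviations from the group means of arrays with the same replicate number correlated at 0.13, 0.12 and 0.16, and those of other pairs at -0.15 to 0.04. These correlations are weak, and no pairing is stated by the study or the sample titles. Whether the numbers pair the samples was not tested. The reported fit and permutation tests use no pairing, and a block for the replicate number is an alternative. Spearman correlations were 0.951 to 0.961 within and 0.897 to 0.914 between genotypes. Alternatives covered scaling, filter, pseudocount, prior, array weights, probe set choice, threshold, replicate block and leaving out each array. Detection calls were not used here. Figures were drawn with matplotlib 3.10.9 in Python 3.11.15.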

Additional observations from a re-analysis of the deposited data

How the results depend on the processing

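Of the 56 genes called, 33 (19 lower, 14 higher) kept the same call under all 18 alternatives that refitted the genes, and 0 had an opposite limma call under any. Scaling moved the totals most: 15 genes rose with the arrays centred on their medians, against 26, and the median log2 change of the members was 0.058 after quantile normalization, -0.17 with median centring and -0.14 with centring on the 75th percentile, against -0.01, while the median of all genes was 0.25, 0.17 and 0.19. With a block for the replicate number, 34 fell and 26 rose, and no count moved by over 1.5 times. Leaving out each array gave 24 to 30 falls, 23 to 26 rises and a member median of -0.04 to 0.02. Without the intensity trend 21 fell and 23 rose, and at an adjusted p under 0.01 it was 24 and 23. The shares of all genes called under each alternative are not given here, so these totals describe the members without a background. Among the genes of the pairs, Cox6a1 changed sign to -0.064 with median centring and to -0.035 with the 75th percentile, Cox6a2 ranged from -0.39 to 0.00061 when 1 array was left out (the latter without Fn replicate 2), and the balance of Cox6a2 against Cox6a1 moved to 0.37 with the mean of probe sets (exact permutation p = 0.6), none of these past a threshold. The cause was not tested. The calls lost most often were those of Cox5a (10 of 18 alternatives), Sdhaf2 (9), Sdhd, Ndufb7 and Ndufb8 (8 each), Ndufs7 (7), Ndufb2 and Ndufaf8 (6 each) and Ndufaf7 (5), and each other lost call was lost under 1 or 2. Of the genes that did not pass in the main fit, those that passed most often did so as falls. They were Uqcrb (7 of 18 alternatives), Ndufa6 (5) and Ndufs1, Ndufs3 and Cox4i1 (4 each). With the mean of probe sets Ndufs4 turned to 0.34 and Ndufb8 to 0.22, and Sdha, which had not passed, turned to 0.41. This mean takes in probe sets under the filter, which Ndufs4 and Sdha have and Ndufb8 does not. The filter on dim probe sets and 3 arrays a genotype limit what can be said of Cox4i2, Cox6a2 and Cox8b, which lay near or under the filter level.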

Other observations

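The pyruvate dehydrogenase alpha subunit, the entry of pyruvate into the citric acid cycle, has a somatic gene on the X chromosome, Pdha1, and an autosomal testis gene, Pdha2. This pair was chosen after its values were seen. Pdha2 had signals of 6192, 6336 and 7277 in Wt and 3101, 3738 and 2727 in Fn testes (log2 change -1.06, SE 0.118, adjusted p = 5.9e-05 from limma), and Pdha1 had signals of 538, 503 and 490 in Wt and 1045, 908 and 1034 in Fn testes (0.96, SE 0.114, adjusted p = 8.3e-05 from limma). The testis form fell and the somatic form rose, with no overlap between the genotypes for either gene. Cs, the citrate synthase gene whose paralogue Csl fell, rose from 3536, 3808 and 3150 in Wt to 4333, 4593 and 4319 in Fn testes (0.34, adjusted p = 7.4e-03 from limma).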
